A study of Mus musculus with 4 samples.

Results

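The genes described here are 42 genes known for expression in endothelial cells, the lining of blood and lymph vessels. They form a list that was chosen with earlier results of these data known, and were measured in scrapings of the colon mucosa of mice. Each gene was read from the probe sets that the platform annotation gives to its symbol alone, and its brightest probe set, by the mean of the 4 values, stood for the gene. All 42 were found among the 18194 genes named on the array, and 35 of them had a mean value of at least 6 on the log2 scale over the 4 arrays, as did 11425 genes in all.

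Each genotype was measured on 1 Affymetrix array. The VhlΔIE array came from mice with Vhl deleted in the intestine, and the VhlF/F array from mice with floxed Vhl. The VhlΔIE/Apcmin/+ and VhlF/F/Apcmin/+ arrays came from mice that also carried the Min mutation of Apc, a model of intestinal tumours. All mice were 5 weeks old and of the 129S6/SvEv strain, and the Vhl deletion was labelled as specific to the intestine, with no Cre driver named. The design text names 3 VhlΔIE, 4 VhlF/F, 5 VhlΔIE/Apcmin/+ and 3 VhlF/F/Apcmin/+ mice and does not state whether their RNA was pooled. With 1 array per genotype no difference below has a replicate check, and no p-value is given. Values are given on the log2 scale of RMA, on which a step of 1 means 2-fold.

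Vhl encodes the part of a ubiquitin ligase that recognises hypoxia-inducible factors (HIF), which are degraded in the presence of oxygen. In cells that lack Vhl these factors persist and raise transcription of angiogenic ligands such as VEGF-A, which act on receptors of neighbouring endothelial cells. Endothelial cells of the colon mucosa line a dense capillary plexus below the epithelium, with fenestrated capillaries, venules, arterioles and lymphatics. Their identity is held by ETS and SOX transcription factors, and their junctions, caveolae and receptors give most of the markers listed here.

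Promoter windows are shown for 6 of the genes, chosen to set strongly differing genes beside genes that did not differ upward. Emcn, Flt1, Kdr and Cav2 were at least 2-fold higher in both Vhl comparisons, while Clec14a and Dll4 were lower in both. The windows are the RefSeq sequences of GRCm38.p6, from 250 bases before to 50 bases after the gene's start, written 5′ to 3′ on the gene's own strand. They lie at chr3:137340828-137341127, plus strand (Emcn), chr5:147725962-147726261, minus strand (Flt1), chr5:75978406-75978705, minus strand (Kdr), chr6:17280935-17281234, plus strand (Cav2), chr12:58269209-58269508, minus strand (Clec14a) and chr2:119325534-119325833, plus strand (Dll4). Capitals mark each match on either strand to AGGAA or CGGAA, the core bound by ETS factors such as the members Erg and Ets1.
Emcn: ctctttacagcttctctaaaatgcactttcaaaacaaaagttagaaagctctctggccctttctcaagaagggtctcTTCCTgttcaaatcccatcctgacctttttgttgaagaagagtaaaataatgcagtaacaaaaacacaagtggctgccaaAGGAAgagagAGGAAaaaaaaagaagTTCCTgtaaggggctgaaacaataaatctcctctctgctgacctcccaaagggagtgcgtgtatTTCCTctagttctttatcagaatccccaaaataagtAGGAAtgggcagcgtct
Flt1: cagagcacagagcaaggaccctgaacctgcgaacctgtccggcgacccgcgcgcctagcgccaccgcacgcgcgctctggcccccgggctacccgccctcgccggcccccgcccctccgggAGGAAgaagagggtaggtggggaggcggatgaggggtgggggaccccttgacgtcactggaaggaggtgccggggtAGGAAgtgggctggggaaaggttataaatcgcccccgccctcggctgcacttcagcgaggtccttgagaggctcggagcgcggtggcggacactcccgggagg
Kdr: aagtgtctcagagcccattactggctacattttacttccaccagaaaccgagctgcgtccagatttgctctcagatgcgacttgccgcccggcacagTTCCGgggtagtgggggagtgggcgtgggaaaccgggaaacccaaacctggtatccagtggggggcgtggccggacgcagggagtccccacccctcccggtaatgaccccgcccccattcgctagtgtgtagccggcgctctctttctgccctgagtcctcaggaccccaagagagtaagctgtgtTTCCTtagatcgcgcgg
Cav2: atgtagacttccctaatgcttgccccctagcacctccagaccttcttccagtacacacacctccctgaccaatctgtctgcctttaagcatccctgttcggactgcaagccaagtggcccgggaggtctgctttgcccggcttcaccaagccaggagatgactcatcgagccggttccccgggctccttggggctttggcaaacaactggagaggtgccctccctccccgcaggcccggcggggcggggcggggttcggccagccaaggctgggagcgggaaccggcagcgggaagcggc
Clec14a: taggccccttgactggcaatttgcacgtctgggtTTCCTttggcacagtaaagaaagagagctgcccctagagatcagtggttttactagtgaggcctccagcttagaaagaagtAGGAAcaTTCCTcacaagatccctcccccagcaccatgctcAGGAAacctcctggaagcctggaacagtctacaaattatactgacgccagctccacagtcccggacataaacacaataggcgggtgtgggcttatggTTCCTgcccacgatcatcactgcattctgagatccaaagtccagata
Dll4: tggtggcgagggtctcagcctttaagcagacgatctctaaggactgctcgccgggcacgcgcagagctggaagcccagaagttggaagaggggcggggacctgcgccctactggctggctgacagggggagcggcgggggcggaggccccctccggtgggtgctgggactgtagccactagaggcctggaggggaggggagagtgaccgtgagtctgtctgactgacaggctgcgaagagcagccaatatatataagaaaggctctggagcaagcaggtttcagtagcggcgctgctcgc

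The Emcn window held 6 ETS cores, those of Flt1 and Kdr 2 each and that of Clec14a 5, while the windows of Cav2 and Dll4 held 0. At least 1 such core was present in 78.0% of all 32851 promoter windows and in 23 of the 28 windows of the 23 members with a sequence in the RefSeq table, or 82.1%. The core of the hypoxia response element, searched as ACGTG or GCGTG on both strands with overlapping matches counted, was present in 43.8% of all windows and in 10 of the 28 member windows, or 35.7%. Among the windows shown, Kdr held 2 matches, Emcn, Flt1, Clec14a and Dll4 held 1 each, and Cav2 held 0. Genes that were much higher and genes that were lower with Vhl deletion thus both had windows with and without ETS cores. A match describes the letters of a window and is no evidence of binding.

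Endothelial genes were higher in both Vhl deleted arrays as a group. Of the 42 genes, 38 read higher in both Vhl deleted arrays than in both Vhl floxed arrays, so the groups did not overlap for them, as was the case for 24.7% of all genes. The exceptions were Clec14a, Dll4, Glycam1 and Lyve1. Without the Apc mutation 16 of the 42 genes were at least 2-fold higher in VhlΔIE than in VhlF/F, against 1.61% of all genes, and with it 11 were at least 2-fold higher in VhlΔIE/Apcmin/+ than in VhlF/F/Apcmin/+, against 1.96% of all genes. The median difference of the 42 genes was 0.90 without and 0.73 with the Apc mutation, on the log2 scale, while the medians of all genes were 0.00 and -0.01. More endothelial cells and more RNA of these genes per cell cannot be told apart in such bulk samples.

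The excess was also present among the brighter genes alone. Among the 35 genes with a mean of at least 6, 15 were at least 2-fold higher without the Apc mutation and 11 with it, against 2.03% and 2.58% of the 11425 genes at that brightness. Averaging all probe sets of each gene left 32 members at that brightness, of which 7, rather than 11, were at least 2-fold higher with the Apc mutation. Of all 10104 genes left by this averaging, 223 were. By the brightest probe set, 10 of the 35 genes were at least 2-fold higher in both backgrounds, against 1.41% of the 11425 genes. The same 10 of the 42 stood against 1.07% of all genes. These were Emcn, Flt1, Kdr, Nrp1, Ptprb, Aplnr, Sox18, Cav1, Cav2 and Plvap. The 2 Vhl comparisons share no array. Of the 35 genes 0 were at least 2-fold lower in either Vhl comparison, against 1.29% and 1.48% of genes at that brightness. Higher by any amount were 33 of the 35 without and 32 with the Apc mutation, against 46.3% and 46.1%, and 32 in both, against 34.2%. The groups did not overlap for 32 of the 35, against 27.3%. At least 1.5-fold higher were 30, 23 and, in both, 22, against 5.73%, 6.64% and 4.05%.

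**Figure D1:**
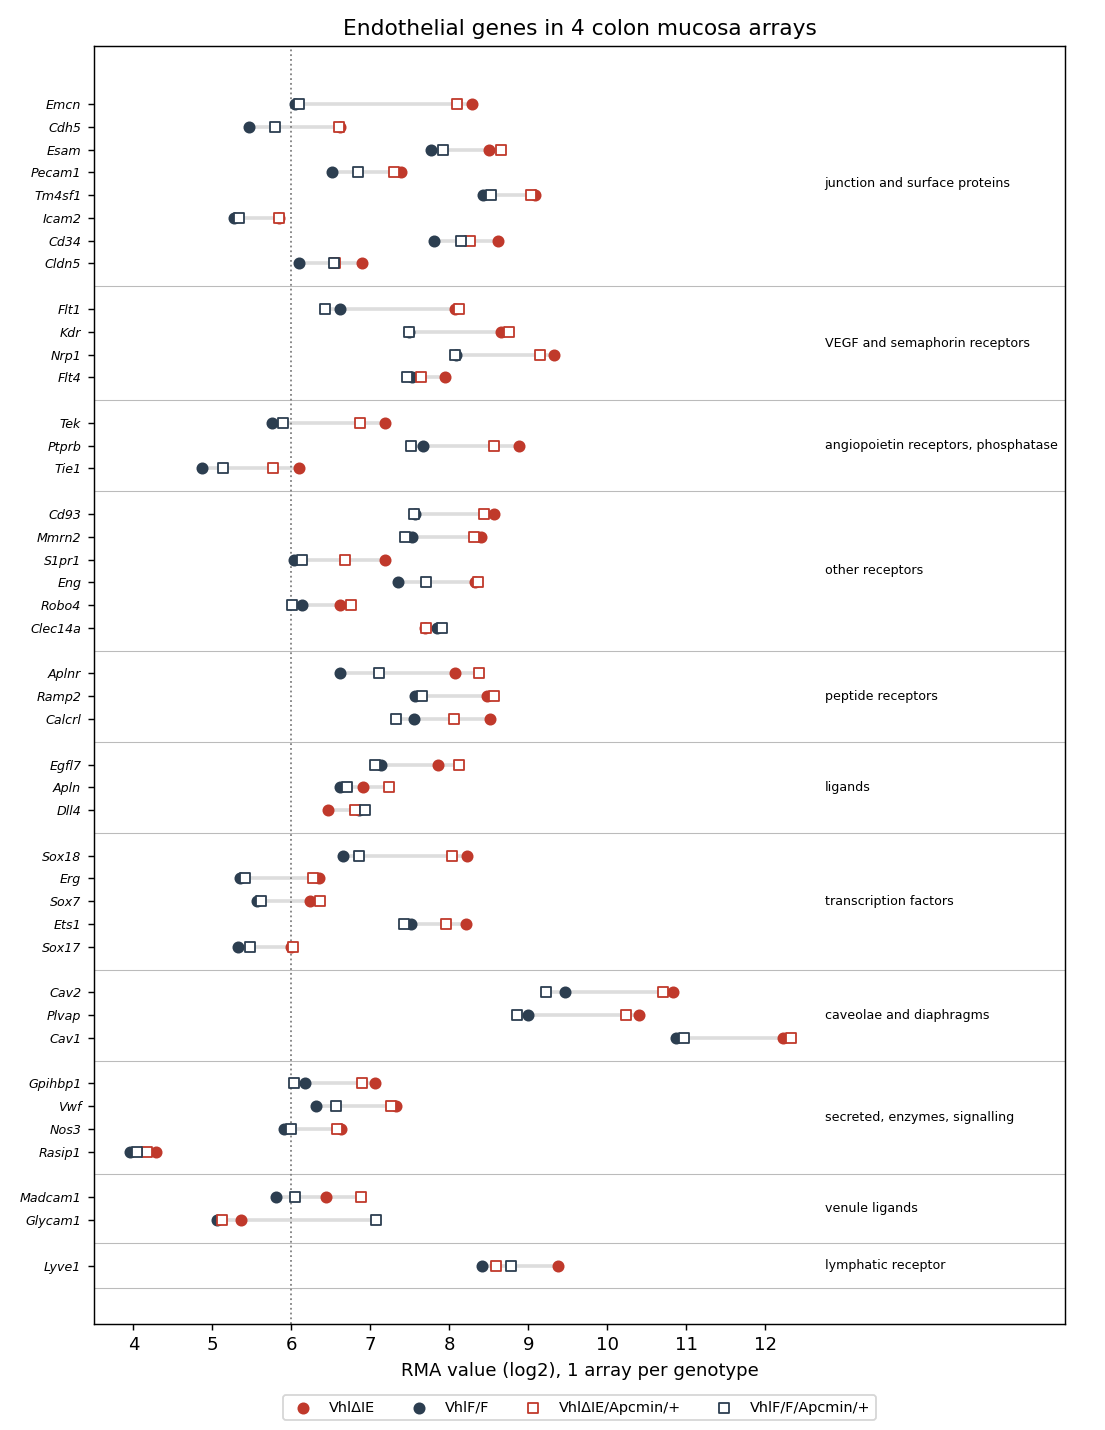
RMA values on the log2 scale (horizontal axis) of the 42 endothelial genes, grouped by role, in the VhlΔIE, VhlF/F, VhlΔIE/Apcmin/+ and VhlF/F/Apcmin/+ arrays, with 1 point per array and a dotted line at 6. Filled circles are arrays without and open squares arrays with the Apc mutation. Red points of the Vhl deleted arrays lie right of both dark points for 38 genes, and Clec14a, Dll4, Glycam1 and Lyve1 are the exceptions.

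Among the proteins of the endothelial surface and junctions, Emcn, which encodes the sialomucin endomucin of capillaries and veins, had the largest difference of all members. It read 8.29 in VhlΔIE and 6.04 in VhlF/F, and 8.10 in VhlΔIE/Apcmin/+ and 6.10 in VhlF/F/Apcmin/+. The differences of 2.25 and 2.00 correspond to 4.76-fold and 4.01-fold. Cdh5, the VE-cadherin that holds endothelial junctions together, read 6.61 in VhlΔIE against 5.46 in VhlF/F and 6.60 in VhlΔIE/Apcmin/+ against 5.79 in VhlF/F/Apcmin/+. It was thus higher in both backgrounds, and at least 2-fold in the one without the Apc mutation. Pecam1, the adhesion molecule CD31, also found on platelets and leukocytes, read 7.39 and 7.30 in the Vhl deleted arrays without and with the Apc mutation, against 6.51 and 6.84 in their floxed counterparts.

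The other surface genes differed by less than 2-fold. Esam, an adhesion molecule of endothelial tight junctions, was higher by 0.73 in each background. Tm4sf1, a small membrane protein of endothelial cells, was higher by 0.67 and 0.50, and Icam2, an integrin ligand whose mean lay below 6, by 0.55 and 0.51. Cldn5, the claudin of endothelial tight junctions, read 6.90 in VhlΔIE against 6.10 in VhlF/F, and 6.55 in VhlΔIE/Apcmin/+ against 6.54 in VhlF/F/Apcmin/+. Cd34, a sialomucin of endothelium and blood progenitors, followed the same pattern, with 8.61 in VhlΔIE against 7.81 in VhlF/F and 8.26 in VhlΔIE/Apcmin/+ against 8.15 in VhlF/F/Apcmin/+. For both genes the floxed array with the Apc mutation read higher than the floxed array without it.

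Receptors of the VEGF family showed large differences except for Flt4. Flt1, the VEGF receptor 1, which also has a soluble form that traps ligand, read 8.07 in VhlΔIE and 6.61 in VhlF/F, and 8.12 in VhlΔIE/Apcmin/+ and 6.43 in VhlF/F/Apcmin/+, so that it was 2.74-fold and 3.23-fold higher. Kdr, the main signalling receptor VEGFR2, read 8.66 in VhlΔIE and 7.49 in VhlF/F, and 8.76 in VhlΔIE/Apcmin/+ and 7.49 in VhlF/F/Apcmin/+. Nrp1, a co-receptor for VEGF and semaphorins, read 9.33 in VhlΔIE and 8.09 in VhlF/F, and 9.15 in VhlΔIE/Apcmin/+ and 8.07 in VhlF/F/Apcmin/+. The 2 floxed arrays lay within 0.18 of each other for all these 3 genes. Flt4, the VEGF-C receptor of lymphatic endothelium, read 7.94 in VhlΔIE and 7.53 in VhlF/F, and 7.64 in VhlΔIE/Apcmin/+ and 7.47 in VhlF/F/Apcmin/+, and its differences were 0.41 and 0.17.

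The ligand Vegfa was 1.90 and 1.91 higher on the log2 scale in the Vhl deleted arrays, with values of 9.96 and 9.92 against 8.06 and 8.01 in the floxed arrays. The other ligands differed less. Vegfb, a ligand of Flt1, was higher by 0.24 and 0.42, and Pgf, another one, by 0.36 and 0.47 at a level below 6. Vegfc and Vegfd, the ligands of Flt4, differed by 0.08 and -0.03 and by 0.20 and -0.04. Nrp2, the neuropilin of veins and lymphatics, was at -0.32 in mice wild type for Apc and at 0.64 in Apcmin/+ mice, and Sema3a, a semaphorin that binds Nrp1, by -0.10 and -0.40. Among the VEGF ligands measured, Vegfa alone thus differed by 2-fold or more.

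Angiopoietin receptors were higher as well. Tek, the receptor TIE2, read 7.18 in VhlΔIE and 5.75 in VhlF/F, and 6.87 in VhlΔIE/Apcmin/+ and 5.90 in VhlF/F/Apcmin/+. Tie1, its partner receptor, read 6.10 in VhlΔIE and 4.87 in VhlF/F, and 5.77 in VhlΔIE/Apcmin/+ and 5.13 in VhlF/F/Apcmin/+, below 6 in every array but VhlΔIE. Ptprb, the phosphatase VE-PTP that restrains TIE2, read 8.88 in VhlΔIE and 7.67 in VhlF/F, and 8.57 in VhlΔIE/Apcmin/+ and 7.52 in VhlF/F/Apcmin/+. All 3 genes had a smaller difference with the Apc mutation than without it. Their ligands Angpt1 and Angpt2 had differences of 0.51 and 0.35 in mice wild type for Apc, and of -0.04 and 0.14 in Apcmin/+ mice, all at values below 6.

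Receptors of the peptides adrenomedullin and apelin were higher in both backgrounds. Aplnr, the apelin receptor, read 8.07 in VhlΔIE and 6.62 in VhlF/F, and 8.38 in VhlΔIE/Apcmin/+ and 7.11 in VhlF/F/Apcmin/+. Calcrl and Ramp2 together form an adrenomedullin receptor. Calcrl read 8.52 in VhlΔIE and 7.55 in VhlF/F, and 8.06 in VhlΔIE/Apcmin/+ and 7.33 in VhlF/F/Apcmin/+, while Ramp2 differed by 0.92 and 0.93. Adm, which encodes adrenomedullin, was higher by 2.01 and 2.13, and the related peptide gene Adm2 by 0.64 and 0.67. Apln, the apelin ligand made by endothelial tip cells, was higher by 0.29 and 0.55, and the other receptor ligand Apela differed by -0.13 and -0.23 at values below 5.

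**Figure D2:**
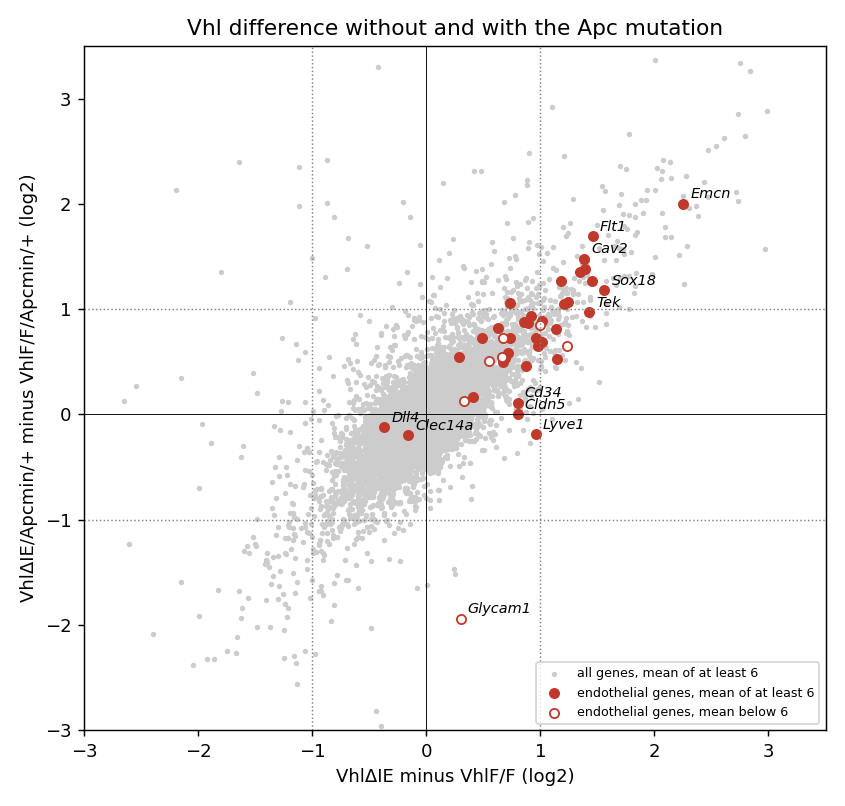
Log2 difference VhlΔIE minus VhlF/F (horizontal axis) against VhlΔIE/Apcmin/+ minus VhlF/F/Apcmin/+ (vertical axis) for the endothelial genes (red, open where the mean is below 6) and for all genes with a mean of at least 6 (grey), with dotted lines at 2-fold; 29 grey genes lie outside the axes. Most red points lie in the upper right quadrant up to Emcn at 2.25 and 2.00, while Glycam1 lies far below zero on the vertical axis.

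Notch signalling selects tip cells in sprouting vessels, and its endothelial ligand did not follow the receptors above. Dll4, that ligand, read 6.47 in VhlΔIE and 6.85 in VhlF/F, and 6.81 in VhlΔIE/Apcmin/+ and 6.93 in VhlF/F/Apcmin/+, so it was lower by small amounts in both backgrounds. Its second probe set with a mean of at least 6 differed by -0.14 and -0.28. Notch4, an endothelial Notch receptor, was higher by 1.04 and 0.77, and Notch1, a receptor used by many cell types, differed by -0.54 and -0.33. Esm1, a tip cell proteoglycan induced by VEGF, was the gene of the arterial, venous and tip cell list that was at least 2-fold higher in both backgrounds. It read 7.56 in VhlΔIE and 4.39 in VhlF/F, and 6.82 in VhlΔIE/Apcmin/+ and 4.27 in VhlF/F/Apcmin/+. Its differences of 3.17 and 2.55 exceeded those of every member, and it lay below 6 in both floxed arrays.

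Other endothelial receptors and their matrix partners were mostly higher. Cd93 and Clec14a are C-type lectin-like receptors that bind the matrix protein multimerin 2, encoded by Mmrn2. Cd93 read 8.57 in VhlΔIE and 7.56 in VhlF/F, and 8.44 in VhlΔIE/Apcmin/+ and 7.55 in VhlF/F/Apcmin/+. Mmrn2 read 8.40 in VhlΔIE and 7.53 in VhlF/F, and 8.31 in VhlΔIE/Apcmin/+ and 7.44 in VhlF/F/Apcmin/+. Clec14a read 7.69 in VhlΔIE and 7.85 in VhlF/F, and 7.71 in VhlΔIE/Apcmin/+ and 7.91 in VhlF/F/Apcmin/+. Cd93 and Mmrn2 were thus higher in both backgrounds and Clec14a slightly lower, also in its dimmer probe set, with differences of -0.36 and -0.54.

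Eng, the endoglin co-receptor for BMP ligands, was higher by 0.98 and 0.65. Its ligand gene Gdf2 differed by 0.03 and -0.27, and Tgfb1 by 0.18 and 0.40. S1pr1, the sphingosine-1-phosphate receptor of endothelium and lymphocytes, was higher by 1.15 and 0.53, while the sphingosine kinase Sphk1 differed by 0.57 and -0.21. Robo4, an endothelial roundabout receptor that stabilises vessels, was higher by 0.49 and 0.73, and the roundabout ligand Slit2 differed by -0.10 and 0.33. Egfl7, a secreted endothelial protein, read 7.86 in VhlΔIE and 7.13 in VhlF/F, and 8.12 in VhlΔIE/Apcmin/+ and 7.06 in VhlF/F/Apcmin/+. This probe set can cross-hybridise, and without such probe sets Egfl7 differed by 0.28 and 0.41, so it was not 2-fold higher with the Apc mutation. Pdgfb, by which endothelial cells recruit pericytes, was higher by 0.44 and 0.51, and the chemokine Cxcl12 by 0.35 and 0.10.

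All 5 endothelial transcription factors on the list were higher in both backgrounds, as were 34.2% of all genes with a mean of at least 6. Sox18, of the SOXF group, read 8.22 in VhlΔIE and 6.65 in VhlF/F, and 8.03 in VhlΔIE/Apcmin/+ and 6.85 in VhlF/F/Apcmin/+, and was 2.95-fold and 2.26-fold higher. Its relatives Sox7 and Sox17, with means below 6, were higher by 0.67 and 0.73 and by 0.66 and 0.55. Erg, the ETS factor that maintains endothelial identity, read 6.35 in VhlΔIE and 5.35 in VhlF/F, and 6.27 in VhlΔIE/Apcmin/+ and 5.41 in VhlF/F/Apcmin/+. Its mean of 5.84 also lay below 6. Ets1, an ETS factor also strong in lymphocytes, was higher by 0.69 and 0.54. In the chosen probe set of each factor, the Vhl deleted arrays lay above both floxed arrays, as for 24.7% of all genes. The Sox17 probe set can cross-hybridise, and the gene's other one, with a mean of 5.59, differed by 0.14 and 0.34. There VhlΔIE at 5.45 lay below VhlF/F/Apcmin/+ at 5.63. Still dimmer probe sets of Erg and Sox7 differed by 0.20 and 0.11 and by -0.03 and 0.02. Ets1 had another bright probe set at 0.74 and 0.55, and dim ones at 0.21 and 0.41 and at -0.05 and -0.08.

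Genes of caveolae, the flask-shaped pits that are dense in capillary endothelium, differed by similar amounts in both backgrounds, as did Esam, Mmrn2, Ramp2 and Gpihbp1. Cav1, the main coat protein of caveolae, also made in fat and muscle cells, read 12.23 in VhlΔIE and 10.87 in VhlF/F, and 12.32 in VhlΔIE/Apcmin/+ and 10.97 in VhlF/F/Apcmin/+. Cav2, its partner, read 10.83 in VhlΔIE and 9.46 in VhlF/F, and 10.70 in VhlΔIE/Apcmin/+ and 9.22 in VhlF/F/Apcmin/+. Plvap, the protein of the diaphragms that span fenestrae and caveolae, read 10.40 in VhlΔIE and 9.0 in VhlF/F, and 10.24 in VhlΔIE/Apcmin/+ and 8.86 in VhlF/F/Apcmin/+. Cav1, Cav2 and Plvap were all between 2.55-fold and 2.78-fold higher in both backgrounds, and for each of them arrays of like Vhl status lay within 0.24 of each other. A dim second probe set of Cav2, with a mean of 5.86, differed by 0.17 and 0.10.

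Among enzymes and secreted proteins, Vwf, the platelet-binding von Willebrand factor, was higher by 1.01 and 0.69. Nos3, the endothelial nitric oxide synthase, was higher by 0.72 and 0.58. Gpihbp1, which holds lipoprotein lipase on the capillary wall, read 7.06 in VhlΔIE and 6.17 in VhlF/F, and 6.90 in VhlΔIE/Apcmin/+ and 6.03 in VhlF/F/Apcmin/+. Lpl, the lipase itself, did not follow it, with 9.88 in VhlΔIE and 10.31 in VhlF/F, and 12.29 in VhlΔIE/Apcmin/+ and 9.0 in VhlF/F/Apcmin/+. Rasip1, a partner of small GTPases in vessel lumen formation, had values between 3.96 and 4.29, far below 6, and differed by 0.33 and 0.13.

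Among genes of specialised vessels, Lyve1, the hyaluronan receptor of lymphatic endothelium and of some macrophages, read 9.37 in VhlΔIE and 8.41 in VhlF/F, but 8.59 in VhlΔIE/Apcmin/+ and 8.78 in VhlF/F/Apcmin/+. Its second probe set gave 0.63 and -0.03. Of the other lymphatic markers, all 4 measured were higher without the Apc mutation, with a median of 0.62, and 1 was higher with it, with a median of -0.21. Among all genes with a mean of at least 6, 46.3% and 46.1% were higher. Named after their values were seen, Mmrn1 differed by 0.91 and -0.27, Reln by 0.72 and -0.15, Prox1 by 0.24 and -0.51, and Pdpn, which other stromal cells also make, by 0.52 and 0.31. Prox1 was dim, with values from 4.2 to 4.95. By their median, lymphatic markers were therefore higher with Vhl deletion on 1 pair of arrays and not on the other. Pdpn and the member Flt4, at 0.41 and 0.17, were higher on both pairs. Whether the backgrounds differ was not tested.

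Glycam1 and Madcam1 encode ligands by which high endothelial venules capture lymphocytes. Glycam1 read 5.36 in VhlΔIE and 5.06 in VhlF/F, and 5.12 in VhlΔIE/Apcmin/+ and 7.07 in VhlF/F/Apcmin/+. It was above 6 in the VhlF/F/Apcmin/+ array alone, which made it the 1 member of 42 at least 2-fold lower with the Apc mutation, against 1.03% of all genes. Without the mutation 0 members were at least 2-fold lower, against 1.15%. Madcam1, the ligand of the gut-homing integrin, was higher by 0.63 and 0.82, without the Glycam1 pattern. The integrin subunits that bind it, Itga4 and Itgb7, were higher by 0.34 and 0.16 and by 0.29 and 0.26.

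The probe sets of the genes, the chosen ones included, were also counted singly. The 42 genes had 78 probe sets, 49 of them with a mean of at least 6. Of these 49, which include chosen probe sets, 44 were higher in both Vhl comparisons. Among all genes at that brightness, counted by their chosen probe set, 34.2% were. In 11 genes with 2 or more such probe sets, all of a gene's probe sets at that brightness pointed in 1 direction within each comparison. Of these genes, Cd93, Tm4sf1 and Ets1 also had dimmer probe sets that pointed the other way in at least 1 comparison. The 4 probe sets of Nrp1 were higher in both backgrounds, by 0.88 to 1.24 and by 1.05 to 1.33. Of the 4 probe sets of Flt1, 3 were higher by 1.19 to 1.69 and the fourth, with a mean of 5.52, by 0.28 and 0.35. Of the 29 probe sets below a mean of 6, 20 were higher in both comparisons. The share over all probe sets of the array, and that of all genes with such agreement, was not counted.

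**Figure D3:**
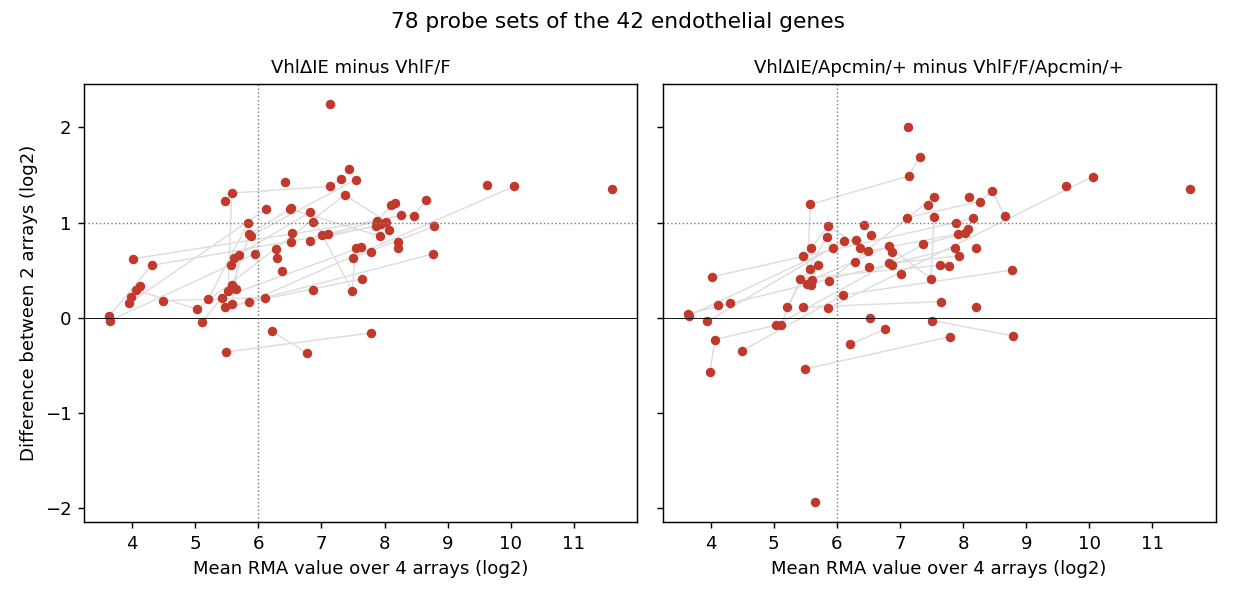
Log2 difference VhlΔIE minus VhlF/F (left) and VhlΔIE/Apcmin/+ minus VhlF/F/Apcmin/+ (right) against the mean RMA value over the 4 arrays for the 78 probe sets of the 42 genes, with grey lines joining probe sets of 1 gene and dotted lines at a mean of 6 and at 2-fold. Bright probe sets lie mostly above zero, and dim ones lie closer to zero.

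A gene with a large difference in one background mostly had a large one in the other. Across the 42 genes, which share the same arrays, the Vhl difference without the Apc mutation and that with it were correlated at 0.72 (Pearson) and 0.76 (Spearman), and across the 11425 genes with a mean of at least 6 at 0.76 and 0.70. Across the 42 genes the mean of both differences was correlated with the mean level of the probe set at 0.36 (Pearson) and 0.30 (Spearman). The Vhl difference was smaller with the Apc mutation than without it in 31 of the 42 genes, with a median gap of -0.15, and in 5925 of the 11425 genes, with a median gap of -0.01. The 42 genes include dimmer ones than the 11425. The difference without the mutation rests on the VhlF/F array, where hepatocyte markers had a mean level of 9.99 against 6.29 to 6.48 in the other arrays. The part of that array in the gap was not tested.

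The Apc mutation itself went with small differences in these genes. With floxed Vhl, VhlF/F/Apcmin/+ minus VhlF/F had a median of 0.08 over the 42 genes, and 1 of them, Glycam1 at 2.00, was at least 2-fold higher, against 0.0879% of all genes. With deleted Vhl, VhlΔIE/Apcmin/+ minus VhlΔIE had a median of -0.08, and 0 of the 42 were at least 2-fold higher, against 0.148% of all genes. The members with a mean of at least 6 lay between -0.24 and 0.49 in the first of these comparisons and between -0.78, for Lyve1, and 0.44 in the second. Of these 35 genes 22 read higher with the Apc mutation when Vhl was floxed, against 50.8% of brighter genes, and 13 when Vhl was deleted, against 50.4%. At least 2-fold lower were 0 of the 35 in either comparison, against 0.665% and 0.105% of brighter genes, and at least 2-fold higher were also 0, against 0.105% and 0.149%. The Apc and Vhl comparisons share arrays, so their values are given side by side only.

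**Figure D4:**
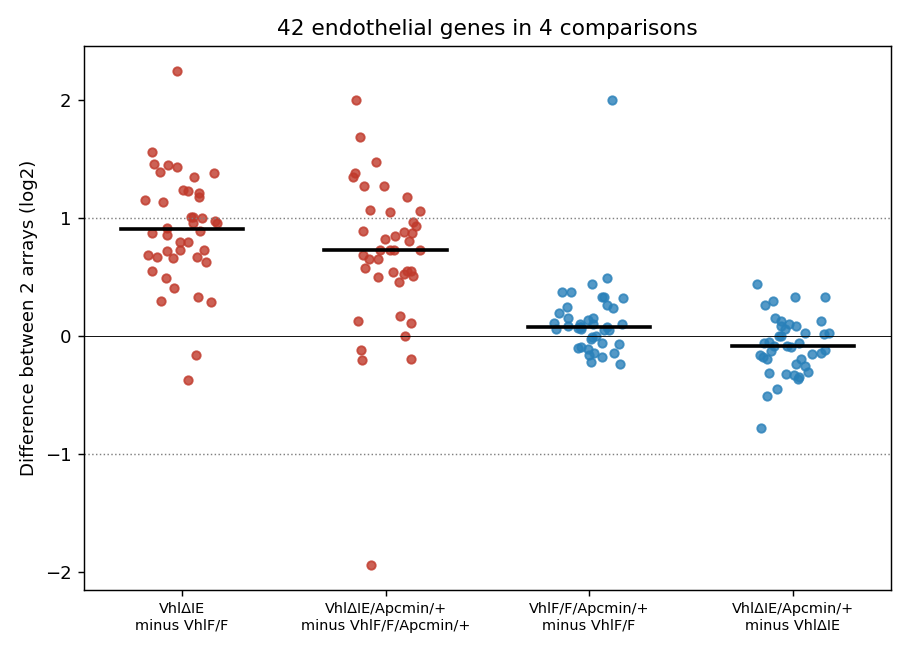
Log2 difference between 2 arrays (vertical axis) of the 42 endothelial genes in the 2 Vhl comparisons (red) and the 2 Apc comparisons (blue), with a bar at the median and dotted lines at 2-fold. The medians are 0.90, 0.73, 0.08 and -0.08 from left to right, and the outlying point near 2 in the third column and below -1 in the second is Glycam1.

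Endothelial genes outside the list of 42 differed in the same direction but by less. Of 16 such genes, a separate list also chosen with earlier results of these data known, 15 were higher without and 14 with the Apc mutation. Their medians were 0.39 and 0.48. For the counts here and in the cell type lists below, the shares among all genes with a mean of at least 6 were 46.3% and 46.1%, and 34.2% for both. The lists also hold dimmer genes. Adgrl4, an adhesion receptor of angiogenic endothelium, was higher by 1.70 and 1.30, and Adgrf5, another adhesion receptor, by 1.23 and 1.15. These 2 were at least 2-fold higher in both, against 1.07% of all genes. The list's exceptions, named after their values were seen, were Ephb4, the ephrin receptor of veins and of colon crypts, at -0.64 and -0.39, and the dim Exoc3l at 0.42 and -0.27. Markers of activated endothelium had medians of 0.68 and 0.47, and 6 of 8 were higher in both backgrounds. The list of arterial, venous and tip cell genes had medians of 0.22 and 0.15 with 8 of 12 higher in both, and that of ligands and partners medians of 0.29 and 0.26 with 12 of 23.

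Markers of other cell types of the mucosa moved with Vhl status to differing degrees, and their part in the endothelial result was not tested. Epithelial markers had medians of 0.07 and 0.17, with 4 of 6 higher in both backgrounds, and their mean level was 13.03 in VhlΔIE and 12.96 in VhlF/F, and 12.99 in VhlΔIE/Apcmin/+ and 12.84 in VhlF/F/Apcmin/+. Smooth muscle markers were lower in both backgrounds for all 7, with medians of -0.62 and -0.47. Mural cell markers, of the pericytes that wrap small vessels, had a median of 0.13 in each background, with 4 of 7 higher in both. All 4 leukocyte markers were higher in each background, by medians of 0.66 and 0.34, and their mean level was 8.88 in VhlΔIE and 8.22 in VhlF/F, and 8.63 in VhlΔIE/Apcmin/+ and 8.29 in VhlF/F/Apcmin/+. All 6 macrophage markers were higher too, by medians of 0.80 and 0.37, and their mean level was 8.58 in VhlΔIE and 7.72 in VhlF/F, and 8.52 in VhlΔIE/Apcmin/+ and 8.12 in VhlF/F/Apcmin/+. Fibroblast markers had medians of 0.46 and 0.15, with 6 of 7 higher without and 4 of 7 with the Apc mutation, but with the Apc mutation their mean level was 10.72 in VhlΔIE/Apcmin/+ and 10.74 in VhlF/F/Apcmin/+, opposite in sign to the median.

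Platelet markers had medians of 0.13 and -0.07, with 4 of 4 higher without and 1 of 4 with the Apc mutation, and 2 of the 4 had a mean of at least 6. The 2 erythroid markers measured had medians of -0.13 and -0.08, with 0 higher in both, and their mean levels of 4.05 to 4.48 lay below 6. Adipocyte markers, of cells that also make Cav1, had medians of -0.05 and 0.58 over 3 genes. Their mean level was 8.26 in VhlΔIE and 8.11 in VhlF/F, opposite in sign to the median, and 7.71 in VhlΔIE/Apcmin/+ and 7.12 in VhlF/F/Apcmin/+.

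**Figure D5:**
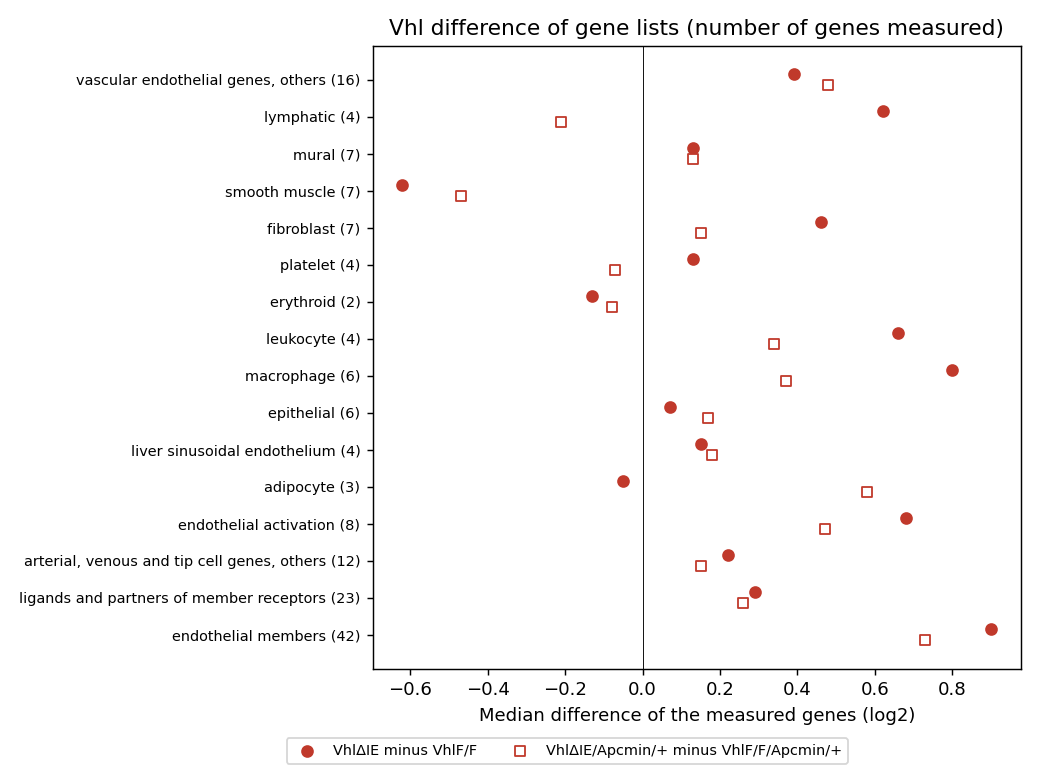
Median log2 difference (horizontal axis) of the measured genes of each list, with the number of genes in brackets, for VhlΔIE minus VhlF/F (filled circles) and VhlΔIE/Apcmin/+ minus VhlF/F/Apcmin/+ (open squares); the hepatocyte list is not drawn. The 42 endothelial genes lie furthest right without and with the Apc mutation, at 0.90 and 0.73, and smooth muscle lies furthest left at -0.62 and -0.47.

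The arrays also differed in ways that the genotype labels do not name. Vhl read 7.03 and 6.56 in the Vhl deleted arrays against 8.40 and 8.17 in the floxed arrays, in the direction of the labels. Xist, expressed from the inactive X chromosome of females, read 5.58 and 6.25 in the deleted arrays against 11.37 and 11.83 in the floxed arrays, so this difference and Vhl status cannot be told apart. The Y-linked Eif2s3y read 8.78 and 8.80 in the deleted arrays against 8.58 and 7.27 in the floxed arrays. The clock gene Dbp read 5.86 and 8.05 in the deleted arrays against 9.37 and 10.74 in the floxed arrays, and the part of either in the endothelial result was not tested. Hepatocyte markers were high in the VhlF/F array, with a mean level of 9.99 against 6.29 to 6.48 in the other arrays. Markers of liver sinusoidal endothelium had a mean level of 5.90 in VhlF/F and medians of 0.15 and 0.18. Of these 4 genes, however, 1 had a mean of at least 6, and whether the VhlF/F array held liver endothelium was not tested. With the VhlF/F/Apcmin/+ array in place of the VhlF/F array, an alternative chosen after the data were seen, VhlΔIE had 14 of the 35 brighter members at least 2-fold higher and a median of 0.81. With the same control, 332 of the 11425 brighter genes were at least 2-fold higher, and their median was -0.03. Against the VhlF/F array, 15 of the 35 brighter members were at least 2-fold higher in VhlΔIE, with a median of 0.96. The median of the 35 for VhlΔIE/Apcmin/+ minus VhlF/F/Apcmin/+ was 0.81.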

How the data were processed

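RNA of colon mucosal scrapings was hybridised to Affymetrix arrays with 45101 probe sets. The deposited files hold log2 values. Per the submitters' processing notes the authors used affy for RMA, which removes background, makes the arrays' distributions alike and combines probes, so that a change shared by most transcripts is lost. Their versions were not given. Array medians were 6.05 to 6.07.

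Symbols came from the platform annotation, checked by Entrez identifier against RefSeq GRCm38.p6. One symbol stood beside 34958 probe sets. The 932 with several named no gene, and 9211 were unnamed here. Each gene took its brightest probe set, and brighter genes have a mean of at least 6. A difference is one array's log2 value minus another's, counted at 2-fold. No test was run, because each genotype has 1 array, and the number of arrays limits precision. All members could be named, and of the 16 other lists the genes at least 2-fold higher in both Vhl comparisons and the ligands and partners. Members and lists were chosen with earlier results of these data known. The counting was tested on simulated data. Software was limma 3.58.1 in R 4.3.3 for cyclic loess, and pandas 2.3.3, numpy 2.4.6 and matplotlib 3.10.9 in Python 3.11.15.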

Additional observations from a re-analysis of the deposited data

Results flagged for a closer look

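Of the 42 endothelial genes, 2 had Vhl differences of opposite direction in the 2 backgrounds that lay at least 2-fold apart. The difference between backgrounds was not tested, since each genotype has 1 array. For Glycam1 the Vhl difference with the Apc mutation minus that without it was -2.25, from differences of -1.94 with and 0.30 without the mutation. For Lyve1 the gap was -1.15, from differences of -0.19 with and 0.96 without the Apc mutation.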

How the results depend on the processing

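Over the alternatives run (no filter, a value of 6 in at least 1 array, a mean of at least 7, values under 6 raised to 6, the mean over probe sets, no cross-hybridising probe sets, cyclic loess and the other floxed array as control), the median of the endothelial genes that each setting kept lay between 0.81 and 1.00 without the Apc mutation and between 0.73 and 0.91 with it. The mean over probe sets gave 7 of 32 genes at least 2-fold higher with the Apc mutation, in place of 11 of 35. In that setting 223 of all 10104 genes were. At a 1.5-fold threshold 30 genes were higher without and 23 with the Apc mutation and 22 in both, and 1, Lyve1, was lower for the Apc mutation with deleted Vhl. Without a filter, and with a value of 6 in at least 1 array, 1 gene, Glycam1, was at least 2-fold lower for Vhl deletion with the Apc mutation and 1, again Glycam1, higher for the Apc mutation with floxed Vhl. The filter on 1 array kept Glycam1 only through VhlF/F/Apcmin/+, at 7.07, the array used in both of these comparisons. Of all genes, 188 of 18194 were lower and 16 higher without a filter. With the filter on 1 array, 181 of 11871 were lower and 14 higher. With the other floxed array as control, an alternative chosen after the data were seen, Glycam1 differed by 0.06 in place of -1.94 for VhlΔIE/Apcmin/+. With values under 6 raised to 6, Tie1 differed by 0.10 and 0.00 without and with the Apc mutation. Egfl7 differed by 0.41 with the Apc mutation without cross-hybridising probe sets, in place of 1.06. No paired analysis was possible because each genotype has 1 array. Arrays could not be left out in turn, since each is the only one of its genotype, and the spread within a genotype is unknown.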
